A study of Arabidopsis thaliana with 36 samples.

Results

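Transcripts of 2 BAHD acyltransferase genes, FACT (AT5G63560) and HCT (AT5G48930), were followed across the 12 groups of an Arabidopsis thaliana series on dormancy and secondary growth. The genes were chosen by name for their roles in suberin-associated and lignin chemistry, with earlier results of these data known. Each has 1 probe set, and both are among the 15922 of 22746 probe sets that passed a filter on low intensity. The values were scaled probe-set intensities of 36 ATH1 arrays, 3 per group, and each array held the total RNA of 200 to 400 pooled plants. Plants grew in compost at 22 °C under 24 h light after 2 days of stratification, in every group, and the labels give no plant age.

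Separated xylem and cork came from MYB61 knockout plants, MYB50 knockout plants and wild-type Col-0 plants. Whole hypocotyls came from the abscisic acid insensitive line abi1, the abscisic acid deficient line aba1 and their wild type Ler, and from the strigolactone-deficient line max4, the auxin-resistant line axr1 and wild-type Col-0. The labels name no allele for any of these lines and no parental accession for the knockouts, max4 or axr1, which were set against Col-0. The genes mutated in these lines had no named probe set, so no line could be checked by its own transcript. The labels name the replicates without saying that the pools were grown separately, so the p-values measure the spread between these samples, which may be technical. In tissue RNA, fewer cells of a type and less RNA per cell cannot be told apart.

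BAHD enzymes move an acyl group from coenzyme A to an alcohol or amine, and the family makes many plant esters and amides. FACT joins caffeoyl-CoA to long-chain fatty alcohols, which gives the alkyl caffeates found in the waxes that accompany suberin, the hydrophobic polymer of root endodermis and of cork. HCT joins p-coumaroyl-CoA to shikimate on the route to the guaiacyl and syringyl units of lignin, the polymer that stiffens xylem walls. In the Arabidopsis hypocotyl, secondary growth lays down lignified xylem inside the vascular cambium and forms cork on the outside.

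Within groups, arrays correlated with each other at 0.9745 to 0.9938, and all 36 correlated best with an array of their own group. Array medians ran from 35.1 to 44.9, and 29.5% to 37.1% of the probe sets on an array lay under 16. The MYB50 knockout cork replicate 1 is marked as a repeat in its title, and its values for both genes are the highest of that group, 242.1 for FACT and 1014.8 for HCT. Of 14 xylem wall markers, 3 had a named probe set (the xylan synthesis genes GUT2, IRX15 and IRX15-L), and over the 3 genotypes all 3 were called higher in xylem than in cork (2 of 3 in Col-0 and 1 of 3 in the MYB61 knockout). Of all probe sets tested, 27.6% were called higher in xylem over the genotypes, 19.8% in Col-0 and 15.3% in the MYB61 knockout. With 3 markers, these counts say little about the MYB61 knockout. The cork samples also held phloem transcripts: CLE41, which encodes a phloem-derived peptide, averaged 29.4 in xylem and 572.2 in cork. Of the 26 suberin genes that stood as cork markers, only FACT and AT2G48130 had a named probe set, and of the 7 endodermis markers none did.

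As a ratio of group means, FACT differed more between groups than HCT did. Its group means spanned 18.4-fold, and those of HCT 2.70-fold. The FACT span rests on dim xylem groups, and outside xylem its means spanned 3.94-fold, from Ler to Col-0 hypocotyls. FACT was highest in Ler hypocotyls, at 269.0 ± 6.31 (SD, n = 3), followed by MYB50 knockout cork at 227.0 ± 13.5, and neither group overlapped the next. The axr1 (165.6 ± 30.6) and aba1 (159.1 ± 24.1) hypocotyls overlapped each other and stood above Col-0 cork (114.1 ± 6.06). Below that, each of Col-0 cork, abi1 (110.1 ± 10.6), max4 (94.5 ± 9.04), MYB61 knockout cork (84.0 ± 7.23) and Col-0 hypocotyls (68.2 ± 7.43) overlapped the next in order. A 3.56-fold step then separated Col-0 hypocotyls from the xylem groups, where MYB50 knockout (19.1 ± 2.11), Col-0 (18.2 ± 3.92) and MYB61 knockout (14.6 ± 4.85) overlapped. Those xylem values lie close to the low end of the scale, and no detection call was used here.

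HCT was high in every group, and most neighbours in its order overlapped. MYB50 knockout xylem was highest, at 1958 ± 124 (SD, n = 3), and its arrays did not overlap those of Col-0 hypocotyls (1562 ± 33.0), which came next. Col-0 xylem (1480 ± 305), axr1 (1278 ± 102), MYB61 knockout xylem (1268 ± 202) and max4 (1211 ± 46.8) overlapped in turn. After a gap came Ler (974.6 ± 11.3), MYB50 knockout cork (944.1 ± 67.1), abi1 (864.5 ± 185), aba1 (834.8 ± 63.3) and Col-0 cork (832.8 ± 76.6), each of which overlapped the next. MYB61 knockout cork was lowest, at 726.1 ± 51.0, without overlap with Col-0 cork.

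**Figure D1:**
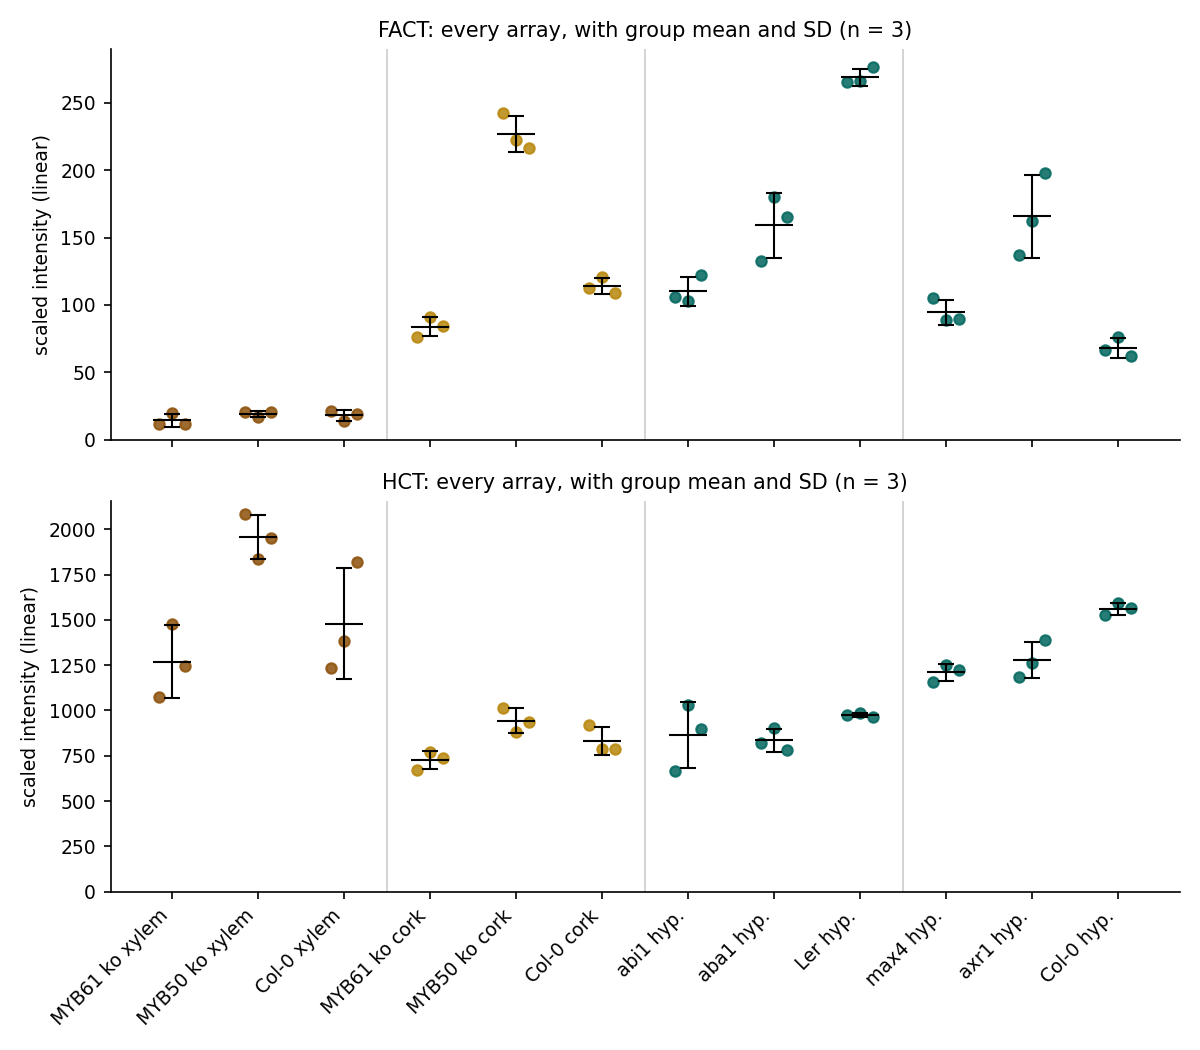
Scaled intensity on a linear axis of FACT (upper panel) and HCT (lower panel) on every array of the 12 groups; points are arrays, and bars are the group mean and SD (n = 3; ko, knockout; hyp., hypocotyl). All FACT values in xylem lie between 11.7 and 21.4, while HCT lies between 1077 and 2085 there and between 669.6 and 1015 in cork.

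The tissue comparison asks how xylem differs from cork of the same genotype. FACT was far lower in xylem and HCT was higher in xylem, in each of the 3 genotypes. FACT read 11.9, 20.2 and 11.7 in MYB61 knockout xylem, against 76.4, 90.8 and 84.7 in MYB61 knockout cork. It read 20.3, 16.7 and 20.4 in MYB50 knockout xylem, against 242.1, 222.5 and 216.3 in MYB50 knockout cork. In Col-0 it read 21.4, 13.8 and 19.3 in xylem, against 112.5, 120.8 and 109.0 in cork. Every xylem array was below every cork array, whatever the genotype.

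HCT ran the other way. It read 1077.1, 1479.6 and 1248.0 in MYB61 knockout xylem, against 669.6, 768.9 and 739.8 in MYB61 knockout cork. It read 2085.2, 1838.0 and 1950.1 in MYB50 knockout xylem, against 1014.8, 881.3 and 936.2 in MYB50 knockout cork. In Col-0 it read 1235.8, 1382.5 and 1821.9 in xylem, against 921.3, 788.6 and 788.6 in cork. The lowest xylem array, from the MYB61 knockout, still lay above the highest cork array, from the MYB50 knockout.

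Differences were tested on log2(intensity + 16) with limma, a linear model with moderated variances, and a gene is called changed where the Benjamini-Hochberg adjusted p over all 15922 probe sets is under 0.05. As the mean of the 3 genotypes, the FACT difference was -2.15 (SE 0.07, 95% interval -2.29 to -2.01, adjusted p = 9.87e-23), and mean intensity was 8.19-fold lower in xylem. For HCT it was 0.87 (SE 0.07, 95% interval 0.73 to 1.02, adjusted p = 4.33e-12), and mean intensity was 1.88-fold higher in xylem. Calls were common in this comparison, at 55.5% of probe sets, but 1.88% of probe sets had a larger difference than FACT in either direction, and 10.5% a larger one than HCT. With a pseudocount of 64 in place of 16, the FACT difference shrank to -1.28, since its xylem values are low, and it was still called.

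Genotype by genotype, FACT differed between xylem and cork by -1.72 in the MYB61 knockout, -2.79 in the MYB50 knockout and -1.93 in Col-0 (limma adjusted p = 1.54e-13, 7.41e-19 and 8.17e-15). HCT differed by 0.78, 1.04 and 0.80 in the same order (limma adjusted p = 6.45e-06, 3.23e-08 and 3.84e-06). In these comparisons 33.8% (MYB61 knockout), 40.2% (MYB50 knockout) and 40.2% (Col-0) of probe sets were called. To ask whether the signed tissue difference of FACT differed from that of HCT, log2(FACT + 16) minus log2(HCT + 16) was compared between xylem and cork arrays. The xylem mean of that value minus the cork mean was -3.02, with every xylem array below every cork array. The two-sided exact permutation test, which reassigned tissue within genotype, gave p = 0.00025, the smallest that its 8000 arrangements allow. Since each gene already separated the tissues completely and in opposite directions, no other p was possible, and whether the sizes of the tissue differences differ was not tested.

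The marker lists moved with tissue as well. The summed xylem wall markers (3 of 14 listed) ran from 111.3 to 208 in MYB61 knockout xylem, from 996.6 to 1460.4 in MYB50 knockout xylem and from 121.2 to 338 in Col-0 xylem. In cork they ran from 91.7 to 115.1 in the MYB61 knockout, from 150.8 to 196.7 in the MYB50 knockout and from 81.2 to 109.4 in Col-0. The summed phloem markers (3 of 8 listed) lay between 83.3 and 119.5 in the xylem groups and between 476.1 and 1161.2 in the cork groups. All 3 were called lower in xylem over the genotypes and in the MYB50 knockout, but 2 of 3 in the MYB61 knockout and in Col-0. Of all probe sets tested, 27.9% were called lower over the genotypes, 21.7% in the MYB50 knockout, 18.6% in the MYB61 knockout and 20.4% in Col-0. The summed cambium markers (2 of 7 listed) lay between 537.3 and 791.5 in the xylem groups and between 227.4 and 362.6 in the cork groups. These 2 genes went opposite ways, however. In each genotype and over the 3 genotypes, 1 was called higher in xylem and 1 lower, so the sum does not stand for both. The part of these cell types in the FACT and HCT differences was not tested.

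**Figure D2:**
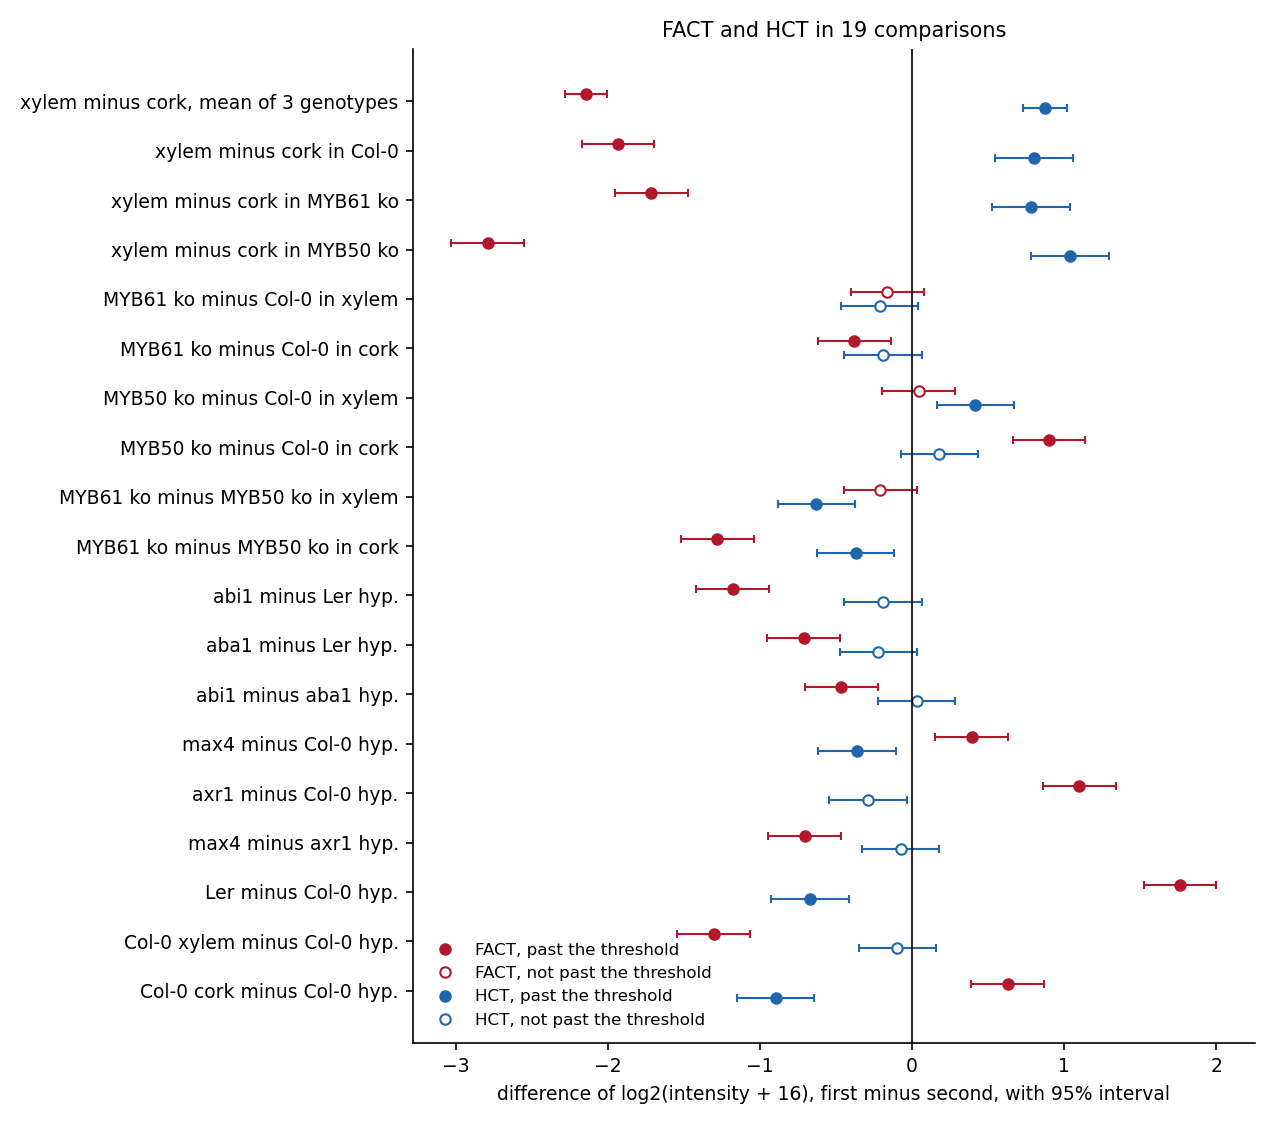
Differences of log2(intensity + 16) for FACT (red) and HCT (blue) in 19 comparisons, each as the group named before minus over the group named after it, with the 95% interval of the limma fit; filled points are past the threshold of adjusted p under 0.05. FACT lies below 0 and HCT above 0 in all xylem against cork comparisons, and FACT intervals reach from -3.03 to 2.00.

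Among pathway genes, the other tested gene of the suberin list was also lower in xylem. AT2G48130 averaged 3.90 in xylem and 23.0 in cork over the 3 genotypes, a difference of -0.94 (limma adjusted p = 2.82e-11). The median difference over all probe sets tested was 0.01. With FACT, AT2G48130 makes 2 of 26 listed suberin genes that were tested, so the list adds only 1 gene to FACT. Its xylem mean of 3.90 lies near the low end of the scale. Of the 20 phenylpropanoid and monolignol enzymes, 3 were tested and they did not move together. HCT was higher in xylem, whereas ALDH2C4, an aldehyde dehydrogenase that oxidises coniferaldehyde and sinapaldehyde to ferulic and sinapic acid, was lower by a difference of -1.36 (limma adjusted p = 1.85e-20). CCR2, a cinnamoyl-CoA reductase, had a difference of -0.37 that was not called (limma adjusted p = 0.0598), with mean intensities of 49.1 in xylem and 48.0 in cork. It differed by -0.81 in the MYB61 knockout, 0.73 in the MYB50 knockout and -1.04 in Col-0, each called.

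Lignin polymerisation and monolignol handling genes, of which 7 of 15 were tested, were all called in xylem against cork, 4 higher and 3 lower, where 55.5% of all probe sets were called. The peroxidase gene PRX25 (AT2G41480) averaged 314.7 in xylem and 21.1 in cork, a difference of 3.10. GT72B1, a glucosyltransferase that acts on monolignols, averaged 1584 in xylem and 586.4 in cork, a difference of 1.44. The monolignol glucosidase genes BGLU46 and BGLU45 were higher in xylem by 0.62 and 0.40. In the MYB61 knockout BGLU45 was not called (-0.10), at 22.7 in xylem and 25.3 in cork. The peroxidase genes PRX71 (AT5G64120) and PRX52 were lower in xylem, with differences of -1.34 and -0.74, and UGT72E2, which glucosylates monolignols, was lower with -0.95. The median of the 7 was 0.40 over the genotypes and -0.10 in the MYB61 knockout, against 0.01 over all probe sets tested in each.

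The other BAHD genes were split between the tissues. Of 56 other family members listed, 42 had a named probe set and 19 were tested, of which 5 were higher in xylem, 9 lower and 5 not called, 73.7% called in all, against 55.5% of all probe sets. Their median difference was -0.11, against 0.01 over all probe sets tested. Among the 6 with the smallest adjusted p, AT1G31490 was the only one higher in xylem, averaging 126.0 in xylem and 35.7 in cork, a difference of 1.48. AT4G15390 (-1.94), AT2G39980 (-1.72), AT2G40230 (-1.57), AT3G50300 (-1.54) and AT5G67150 (-0.89) were lower. Over the 19 members the difference of FACT, -2.15, lay outside their range, while AT1G31490 exceeded HCT.

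**Figure D3:**
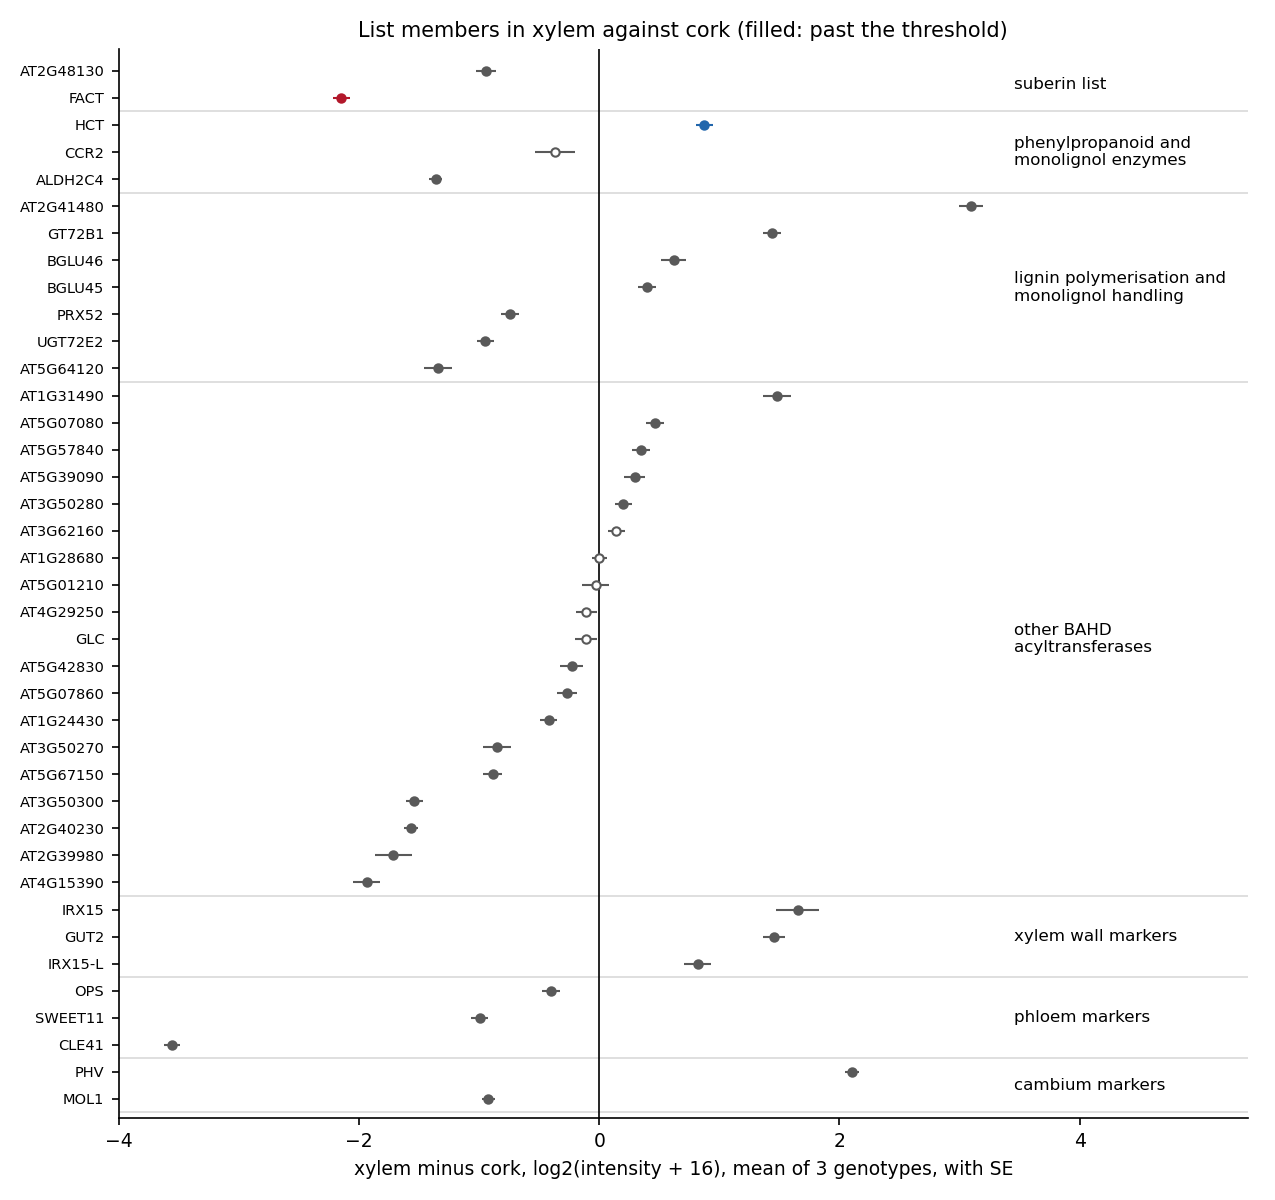
Xylem minus cork difference of log2(intensity + 16), as the mean of 3 genotypes with its SE, for every tested member of the gene lists, grouped by list; FACT is red, HCT is blue, and filled points are past the threshold. The BAHD members spread from -1.94 to 1.48, with FACT at -2.15 and HCT at 0.87.

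MYB61 and MYB50 are R2R3-MYB transcription factor genes, and the knockouts ask what their loss does in each tissue. In MYB61 knockout cork, FACT read 76.4, 90.8 and 84.7, against 112.5, 120.8 and 109.0 in Col-0 cork. The knockout arrays all lay below the Col-0 arrays. The difference was -0.38 (95% interval -0.62 to -0.14, limma adjusted p = 0.0406), with a mean 1.36-fold lower, in a comparison in which 8.00% of probe sets were called. This call was lost under 10 of 16 alternatives, among them 5 of the 6 fits that left out an array, and adjusted p reached 0.302 with scanner background as a covariate. Scanner background was 89.4 to 120.8 on the MYB61 knockout cork arrays and 69.4 to 75.5 on the Col-0 cork arrays.

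HCT in MYB61 knockout cork read 669.6, 768.9 and 739.8, against 921.3, 788.6 and 788.6 in Col-0 cork. The groups did not overlap, but the difference of -0.19 was not called (95% interval -0.45 to 0.06, limma adjusted p = 0.397). In MYB61 knockout xylem, FACT (11.9, 20.2 and 11.7, against 21.4, 13.8 and 19.3 in Col-0 xylem) differed by -0.16 (95% interval -0.40 to 0.08). HCT there (1077.1, 1479.6 and 1248.0, against 1235.8, 1382.5 and 1821.9 in Col-0 xylem) differed by -0.21 (95% interval -0.47 to 0.04). Both overlapped Col-0 and neither was called (limma adjusted p = 0.655 and 0.544), where 1.88% of probe sets were called. Tested directly, the knockout effect in xylem minus that in cork was 0.22 for FACT (95% interval -0.12 to 0.56) and -0.02 for HCT (95% interval -0.38 to 0.34), neither called, with 0.113% of probe sets called.

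Of the other pathway genes in the MYB61 knockout, few were called. PRX71 averaged 23.7 ± 8.60 in MYB61 knockout cork and 59.7 ± 23.4 in Col-0 cork (SD, n = 3 each), a difference of -0.91 (limma adjusted p = 0.00408). ALDH2C4 averaged 96.3 ± 9.40 in knockout cork and 128.6 ± 7.53 in Col-0 cork, a difference of -0.37 (limma adjusted p = 0.0106). The PRX71 and ALDH2C4 calls were lost with scanner background as a covariate, with only the compared arrays and without Col-0 cork replicate 1. In xylem, BGLU45 averaged 22.7 ± 4.44 in the knockout and 50.2 ± 18.3 in Col-0, a difference of -0.75 (limma adjusted p = 0.00113), which was not called with only the compared arrays. By limma, 0 of the 19 other BAHD genes were called in xylem and 0 in cork, with 1 and 4 at an unadjusted p under 0.05. The marker genes were not called in either tissue.

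In MYB50 knockout cork, FACT signal was higher than in Col-0 cork. FACT read 242.1, 222.5 and 216.3 in MYB50 knockout cork, against 112.5, 120.8 and 109.0 in Col-0 cork. The groups are far apart, the mean was 1.99-fold higher in the knockout, and the difference was 0.90 (SE 0.12, 95% interval 0.66 to 1.14, limma adjusted p = 2.71e-07). Calls made up 42.2% of probe sets in this comparison, and 7.21% had a larger difference than FACT. AT2G48130 was higher too, at 34.9 ± 2.57 in MYB50 knockout cork and 18.3 ± 6.76 in Col-0 cork (SD, n = 3 each), a difference of 0.58. HCT read 1014.8, 881.3 and 936.2 in MYB50 knockout cork, which overlapped the 921.3, 788.6 and 788.6 of Col-0 cork, and its difference of 0.18 (95% interval -0.08 to 0.43) was not called.

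In xylem HCT was called and FACT was not. HCT read 2085.2, 1838.0 and 1950.1 in MYB50 knockout xylem, against 1235.8, 1382.5 and 1821.9 in Col-0 xylem. The knockout arrays all lay above Col-0, though the highest Col-0 array came close. The difference was 0.42 (95% interval 0.16 to 0.67, limma adjusted p = 0.00709), with 44.6% of probe sets called, and it was not called without Col-0 xylem replicate 1 (0.30, adjusted p = 0.0766). FACT read 20.3, 16.7 and 20.4 in MYB50 knockout xylem and 21.4, 13.8 and 19.3 in Col-0 xylem, which overlap, and the difference of 0.05 (95% interval -0.19 to 0.28) was not called. Its sign turned with quantile normalization (-0.10) and without Col-0 xylem replicate 2 (-0.05).

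The MYB50 effect in xylem minus that in cork was tested as a contrast of its own. For FACT it was -0.86 (95% interval -1.19 to -0.52, limma adjusted p = 0.000396), where 18.2% of probe sets were called. All FACT values in xylem lay at 21.4 or below in both genotypes. For HCT it was 0.24 (95% interval -0.12 to 0.60, limma adjusted p = 0.381), which was not called, so the HCT call in xylem and its absence in cork were not shown to differ.

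Other lignin genes also differed in the MYB50 knockout. In xylem, CCR2 averaged 112.0 ± 39.1 in the knockout and 13.7 ± 5.80 in Col-0 (SD, n = 3 each), a difference of 2.07 (limma adjusted p = 7.79e-07). PRX71 (1.05), BGLU46 (0.83), PRX52 (0.63) and ALDH2C4 (0.46) were higher in MYB50 knockout xylem as well, and GT72B1 was lower (-0.45). Of the 7 tested lignin polymerisation and monolignol handling genes there, 3 were called higher and 2 lower, GT72B1 among the latter. That made 71.4% called, against 44.6% of all probe sets. In cork, BGLU46 (0.89) and PRX71 (0.80) were higher in the knockout, and GT72B1 (-0.67) and UGT72E2 (-0.52) were lower. Of the 19 other BAHD genes, 5 were higher and 1 lower in MYB50 knockout xylem, and 7 were higher and 1 lower in MYB50 knockout cork. These shares, 31.6% in xylem and 42.1% in cork, were not above the 44.6% and 42.2% called over all probe sets.

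Marker genes differed in the MYB50 knockout tissues too. The summed xylem wall markers of 996.6 to 1460.4 in MYB50 knockout xylem stood apart from the 121.2 to 338 in Col-0 xylem, and all 3 genes were called higher. In cork, the summed phloem markers ran from 1044.9 to 1161.2 in the knockout and from 476.1 to 497 in Col-0, where CLE41 and OPS were called higher in the knockout and SWEET11 lower. The summed cambium markers ran from 537.3 to 576.3 in MYB50 knockout xylem, against 702.2 to 791.5 in Col-0 xylem, and from 325.2 to 362.6 in MYB50 knockout cork, against 231.6 to 253.9 in Col-0 cork. The part of these tissues in the HCT and FACT differences was not tested.

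The knockouts were also set against each other, where the Col-0 arrays play no part. FACT in cork was 2.70-fold lower in the MYB61 knockout than in the MYB50 knockout, a difference of -1.28 (95% interval -1.52 to -1.04, limma adjusted p = 3.18e-10), with 40.2% of probe sets called. In xylem FACT differed by -0.21 (95% interval -0.45 to 0.03), which was not called (limma adjusted p = 0.166). HCT was lower in the MYB61 knockout in both tissues, by 1.54-fold in xylem (difference -0.63, limma adjusted p = 0.000156, with 38.9% of probe sets called) and by 1.30-fold in cork (difference -0.37, limma adjusted p = 0.0176). The cork call for HCT was lost without MYB61 knockout cork replicate 1 (-0.32, adjusted p = 0.0749) or without MYB50 knockout cork replicate 1 (-0.32, adjusted p = 0.0752). In xylem CCR2 (-1.92), BGLU46 (-1.01), PRX71 (-0.81), PRX52 (-0.63), BGLU45 (-0.59) and ALDH2C4 (-0.47) were lower in the MYB61 knockout than in the MYB50 knockout. Not all called lignin genes went that way. Of the 7 tested lignin polymerisation and monolignol handling genes, 4 were called lower in that xylem comparison and 2 higher. That made 85.7% called, against 38.9% of all probe sets. In cork PRX71 (-1.72), BGLU46 (-0.92), AT2G48130 (-0.67) and PRX52 (-0.47) were lower, and GT72B1 was higher (0.45).

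Abscisic acid is a hormone of drought and dormancy that is known to promote suberin formation in roots. Both abscisic acid lines had less FACT signal than Ler, and abi1 had the least. FACT read 105.6, 102.6 and 122.2 in abi1 hypocotyls, against 265.0, 265.8 and 276.3 in Ler hypocotyls. There was no overlap, the mean was 2.44-fold lower in abi1, and the difference was -1.18 (SE 0.12, 95% interval -1.42 to -0.94, limma adjusted p = 1.41e-08). Of all probe sets tested, 10.4% were called between abi1 and Ler, and 1.36% had a larger difference than FACT.

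In aba1 hypocotyls FACT read 132.6, 179.7 and 165.1, against the same 265.0, 265.8 and 276.3 in Ler. All aba1 arrays were lower, by 1.69-fold in the mean, and the difference was -0.71 (95% interval -0.95 to -0.47, limma adjusted p = 2.25e-05), with 27.1% of probe sets called. Both comparisons share the Ler arrays. Set against each other without Ler, abi1 was 1.44-fold lower than aba1 for FACT, a difference of -0.47 (95% interval -0.71 to -0.23, limma adjusted p = 0.00539), with 15.4% of probe sets called. Without aba1 replicate 2 that difference was -0.38 and missed the threshold (adjusted p = 0.0505).

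HCT was not called in any of the 3 abscisic acid comparisons. It read 665.6, 1030.8 and 897.2 in abi1 hypocotyls, which lie on both sides of the 976.4, 984.9 and 962.6 in Ler hypocotyls, and the difference was -0.19 (95% interval -0.45 to 0.06, limma adjusted p = 0.374). It read 818.2, 904.8 and 781.5 in aba1 hypocotyls, all below Ler, with a difference of -0.22 (95% interval -0.48 to 0.03, limma adjusted p = 0.199). The aba1 difference was called with array quality weights (-0.24, adjusted p = 0.0211). Between abi1 and aba1 it was 0.03 (95% interval -0.23 to 0.28).

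AT2G48130 was lower along with FACT, at 12.5 ± 2.56 in abi1 and 22.2 ± 7.54 in aba1, against 36.4 ± 2.36 in Ler (SD, n = 3 each), with differences of -0.88 and -0.47 (limma adjusted p = 8.26e-05 and 0.0148). PRX52 was lower in both lines as well, by -0.47 in abi1 and -0.81 in aba1. In aba1 against Ler, BGLU45 (-1.09), UGT72E2 (-0.83) and GT72B1 (-0.40) were called lower and BGLU46 higher (1.02). Directly between the lines, BGLU45 was higher in abi1 than in aba1 (0.87), as were UGT72E2 (0.59) and ALDH2C4 (0.27), and BGLU46 was lower (-0.64). That ALDH2C4 call was lost under 9 of 16 alternatives, among them pseudocount 1, no filter, only the compared arrays and scanner background as a covariate. The summed phloem markers ran from 497.1 to 601.4 in abi1, from 373.5 to 447.7 in aba1 and from 430.9 to 619.5 in Ler. The summed xylem wall markers ran from 91.1 to 119.1 in abi1 and from 101.8 to 117.3 in aba1, both below the 131 to 135.4 in Ler without overlap. The summed cambium markers ran from 352.1 to 448 in abi1 and from 260 to 267 in aba1, against 412.2 to 456.5 in Ler. Between aba1 and Ler, SWEET11 (-1.24) and PHV (-0.87) were called lower. Of the 3 xylem wall markers, limma called 0 in that comparison, with 1 at an unadjusted p under 0.05, and alternatives called up to 1. Between abi1 and Ler, limma called 0 of the 8 marker genes, with 2 xylem wall and 3 phloem markers at an unadjusted p under 0.05, and alternatives called up to 2 phloem markers and 1 xylem wall marker. The part of these tissues in the FACT differences was not tested.

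Strigolactones and auxin both act on branching and cambium. In max4 and axr1 hypocotyls FACT was higher than in Col-0, most of all in axr1. FACT read 104.9, 88.9 and 89.6 in max4, against 66.3, 76.4 and 61.9 in Col-0 hypocotyls, without overlap. The mean was 1.39-fold higher in max4, and the difference was 0.39 (95% interval 0.15 to 0.63, limma adjusted p = 0.00688), in a comparison in which 44.6% of probe sets were called and 33.5% had a larger difference. In axr1 it read 136.7, 162.6 and 197.6, above every Col-0 array, with a mean 2.43-fold higher and a difference of 1.10 (95% interval 0.86 to 1.34, limma adjusted p = 9.34e-09), where 36.6% of probe sets were called and 4.23% had a larger difference.

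HCT went the other way in both lines, though only its max4 difference was called. It read 1159.6, 1251.0 and 1222.6 in max4 and 1186.4, 1261.3 and 1387.7 in axr1, against 1528.9, 1594.9 and 1563.1 in Col-0 hypocotyls. All mutant arrays lay below all Col-0 arrays. The difference was -0.36 in max4 (95% interval -0.62 to -0.11, limma adjusted p = 0.0178) and -0.29 in axr1 (95% interval -0.54 to -0.03, limma adjusted p = 0.0704). The max4 call was lost with quantile normalization (-0.22, adjusted p = 0.155), without Col-0 hypocotyl replicate 2 (adjusted p = 0.05004) and without max4 replicate 1 (adjusted p = 0.0620). The axr1 difference was called with array quality weights (adjusted p = 0.0144) and in a fit of only these arrays (adjusted p = 0.0164), and shrank to -0.12 with quantile normalization.

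Both lines share the Col-0 hypocotyl arrays. Set against each other, max4 was 1.75-fold lower than axr1 for FACT, a difference of -0.71 (limma adjusted p = 2.12e-05, with 32.3% of probe sets called), while HCT differed by -0.07 (95% interval -0.33 to 0.18) and was not called. AT2G48130 was higher in axr1, at 25.7 ± 7.27 in axr1 and 14.4 ± 2.03 in Col-0 (difference 0.44, limma adjusted p = 0.0164), and it was lower in max4 than in axr1 (-0.59).

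Of the lignin genes, ALDH2C4 averaged 121.6 ± 9.20 in max4 and 100.2 ± 3.55 in axr1, against 53.2 ± 2.76 in Col-0 hypocotyls (SD, n = 3 each), with differences of 0.99 and 0.75. PRX25 was higher in both as well (1.26 in max4 and 1.06 in axr1). PRX71 was lower in max4 (-1.42) and higher in axr1 (0.65), PRX52 likewise (-0.43 and 0.66), and BGLU45 likewise (-0.77 and 0.41). The direct comparison called all 3 lower in max4 than in axr1 (-2.07, -1.09 and -1.18). In max4, UGT72E2 (1.10) and CCR2 (1.23) were higher than in Col-0, and in axr1 BGLU46 was higher (1.08). CCR2 was called higher in axr1 as well. With it, 2 of the 3 tested phenylpropanoid enzymes were called in axr1, where 36.6% of all probe sets were called. Alternatives called 1 to 3 of them.

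The summed xylem wall markers ran from 146.7 to 168.7 in max4 and from 487.4 to 536.7 in axr1, against 261.1 to 269.6 in Col-0 hypocotyls. Of these 3 markers, 1 was called lower in max4 and 2 were not called, while all 3 were called higher in axr1. Alternatives called 1 to 3 of them in max4. The summed phloem markers ran from 357.7 to 376.8 in max4 and from 495.6 to 501.7 in axr1, against 783 to 814 in Col-0 hypocotyls. Gene by gene, 1 phloem marker was called higher in max4 and 2 lower, and in axr1 2 were called lower and 1 was not called. Over all probe sets, 44.6% were called in max4 and 36.6% in axr1. The summed cambium markers ran from 494.7 to 545.8 in max4 and from 441.9 to 496.8 in axr1, against 348.8 to 363.1 in Col-0 hypocotyls. Both cambium markers were called higher in max4, and in axr1 1 was called higher and 1 was not called. The part of these tissues in the FACT and HCT differences was not tested.

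The wild types differed from each other as well. FACT was 3.94-fold higher in Ler hypocotyls (265.0, 265.8 and 276.3) than in Col-0 hypocotyls (66.3, 76.4 and 61.9), a difference of 1.76 (95% interval 1.52 to 2.00, limma adjusted p = 8.36e-14). HCT was 1.60-fold lower in Ler (976.4, 984.9 and 962.6) than in Col-0 (1528.9, 1594.9 and 1563.1), a difference of -0.67 (95% interval -0.93 to -0.42, limma adjusted p = 2.94e-05). With quantile normalization the HCT difference was -0.28 and missed the threshold (adjusted p = 0.0511). This comparison had the most calls of all, 57.8% of probe sets. Summed xylem wall markers ran from 131 to 135.4 in Ler and from 261.1 to 269.6 in Col-0 hypocotyls. Phloem markers ran from 430.9 to 619.5 in Ler and from 783 to 814 in Col-0, and cambium markers from 412.2 to 456.5 in Ler and from 348.8 to 363.1 in Col-0. The phloem sum hides a split, since 1 phloem marker was called higher in Ler, 1 lower and 1 not called. Their median difference was 0.18. The part of these tissues in the FACT and HCT differences was not tested. Accession cannot be told apart here from other differences between these sets of samples.

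Between those hypocotyls, AT2G48130 was also higher in Ler, at 36.4 ± 2.36 in Ler and 14.4 ± 2.03 in Col-0 (difference 0.79). UGT72E2 (1.46), BGLU45 (1.41), CCR2 (1.39), ALDH2C4 (0.68) and PRX52 (0.61) were higher in Ler, and PRX71 (-1.30) and BGLU46 (-0.72) lower.

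Set beside the whole Col-0 hypocotyl, the separated Col-0 tissues bracketed it for FACT. FACT averaged 18.2 ± 3.92 in Col-0 xylem and 114.1 ± 6.06 in Col-0 cork, against 68.2 ± 7.43 in Col-0 hypocotyls (SD, n = 3 each). The differences were -1.30 for xylem (limma adjusted p = 7.78e-11, with 55.5% of probe sets called) and 0.63 for cork (limma adjusted p = 5.64e-05, with 44.0% called). HCT averaged 1480 ± 305 in Col-0 xylem and 832.8 ± 76.6 in Col-0 cork, against 1562 ± 33.0 in Col-0 hypocotyls. It was lower in cork, by -0.90 (limma adjusted p = 7.46e-07), while the xylem difference of -0.10 (95% interval -0.35 to 0.16) was not called. Its sign turned with quantile normalization (0.17) and without Col-0 xylem replicate 1 (0.02). ALDH2C4 (-0.65), PRX71 (-1.88), PRX52 (-0.89) and AT2G48130 (-0.61) were lower in Col-0 xylem than in Col-0 hypocotyls, and PRX25 (1.78) and GT72B1 (1.00) were higher. Of the 7 tested lignin polymerisation and monolignol handling genes, 3 were called higher in that xylem comparison and 2 lower. That made 71.4% called, against 55.5% of all probe sets. ALDH2C4 (1.06) and UGT72E2 (1.13) were higher in Col-0 cork than in Col-0 hypocotyls, and PRX25 (-1.33), BGLU46 (-0.48) and GT72B1 (-0.33) were lower. The tissues and hypocotyls came from different sample sets, so set and tissue cannot be told apart.

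Counted over the 19 comparisons between groups, FACT was called higher in 5, lower in 11 and not called in 3. HCT was called higher in 5, lower in 5 and not called in 9. Both were called in 8, in opposite directions in 7 of them and in the same direction in 1, the MYB61 knockout against the MYB50 knockout in cork. The share of all probe sets called in these comparisons ran from 1.88% to 57.8%. Higher or lower depends on which group was named first. Many of these comparisons share arrays, and xylem against cork over the genotypes is the mean of those within each genotype, so they are not separate pieces of evidence. Over the 12 group means of log2(intensity + 16) the correlation of FACT with HCT was -0.62 (Spearman -0.45), over the 6 xylem and cork means it was -0.76, and over the 6 hypocotyl means -0.52. These are descriptions, since groups share genotype, tissue and scaling.

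**Figure D4:**
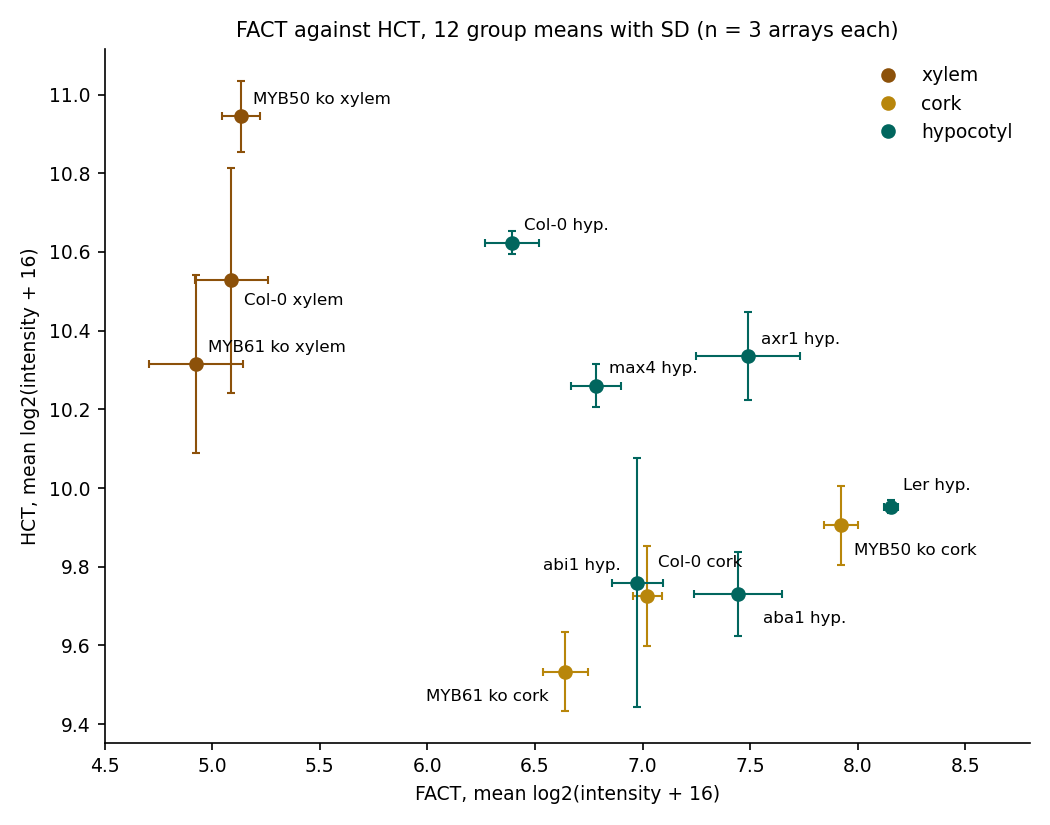
Group means of log2(intensity + 16) for FACT (horizontal axis) and HCT (vertical axis) in the 12 groups, with SD bars (n = 3 arrays each), coloured by tissue. Xylem groups sit at the upper left, with FACT means of 4.92 to 5.13, and cork groups lie at the lower middle to right, at 6.64 to 7.92. On the FACT axis the hypocotyl groups reach past the cork groups on both sides, from Col-0 at 6.39 to Ler at 8.15.

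Profiles most like FACT over the 12 group means were those of AT4G38080 (Pearson r = 0.990), AT2G18370 (0.984), AT2G23540 (0.980), AT5G09480 (0.97), AT4G14060 (0.969), AT2G21100 (0.967), AT2G22510 (0.961) and AT2G48130 (0.961). AT4G38080 averaged 317.5 in MYB50 knockout cork and 111.7 in Col-0 cork. In hypocotyls it averaged 115.3 in abi1 and 192.4 in aba1, against 403.7 in Ler, and 60.8 in max4 and 221.4 in axr1, against 64.7 in Col-0. In the xylem groups it did not exceed 9.17. As with FACT, the 4 highest groups were Ler hypocotyls, MYB50 knockout cork, axr1 and aba1 hypocotyls, but max4 lay below Col-0. The least alike were AT4G07990 (-0.931), AT5G55360 (-0.927), AT3G60540 (-0.911) and AT3G08960 (-0.895).

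For HCT the most alike were AT4G39675 (Pearson r = 0.929), AT2G44360 (0.926), AT5G02440 (0.923), AT2G44300 (0.917), AT2G24140 (0.912), AT5G16040 (0.904), AT1G75280 (0.901) and AT5G40020 (0.900). All 8 had their highest mean in MYB50 knockout xylem, as HCT did. AT1G75280 averaged 387.6 in MYB61 knockout xylem, 1514 in MYB50 knockout xylem and 523.7 in Col-0 xylem, and 62.2, 134.7 and 64.2 in cork of the same genotypes. The least alike were AT1G47400 (-0.950), AT5G39970 (-0.942), AT5G40140 (-0.933) and AT3G62960 (-0.927). AT3G62960 averaged 297.5, 26.9 and 283.2 in xylem of the MYB61 knockout, MYB50 knockout and Col-0, and 1501, 637.9 and 1839 in cork.

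Of 8854 other named and tested probe sets, 205 (2.32%) correlated with FACT at 0.8 or above over the 12 means, and 69 (0.779%) with HCT. Within the BAHD family, AT2G39980 (0.93) and AT3G50300 (0.92) were closest to FACT, and AT5G07080 (0.87) was closest to HCT. Among the markers, CLE41 of the phloem had a correlation of 0.83 with FACT, and GUT2 and IRX15 of the xylem wall had 0.83 and 0.81 with HCT. With quantile normalization, 6 of the 8 genes most like FACT stayed among its 8, but only 3 of the 8 most like HCT.

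**Figure D5:**
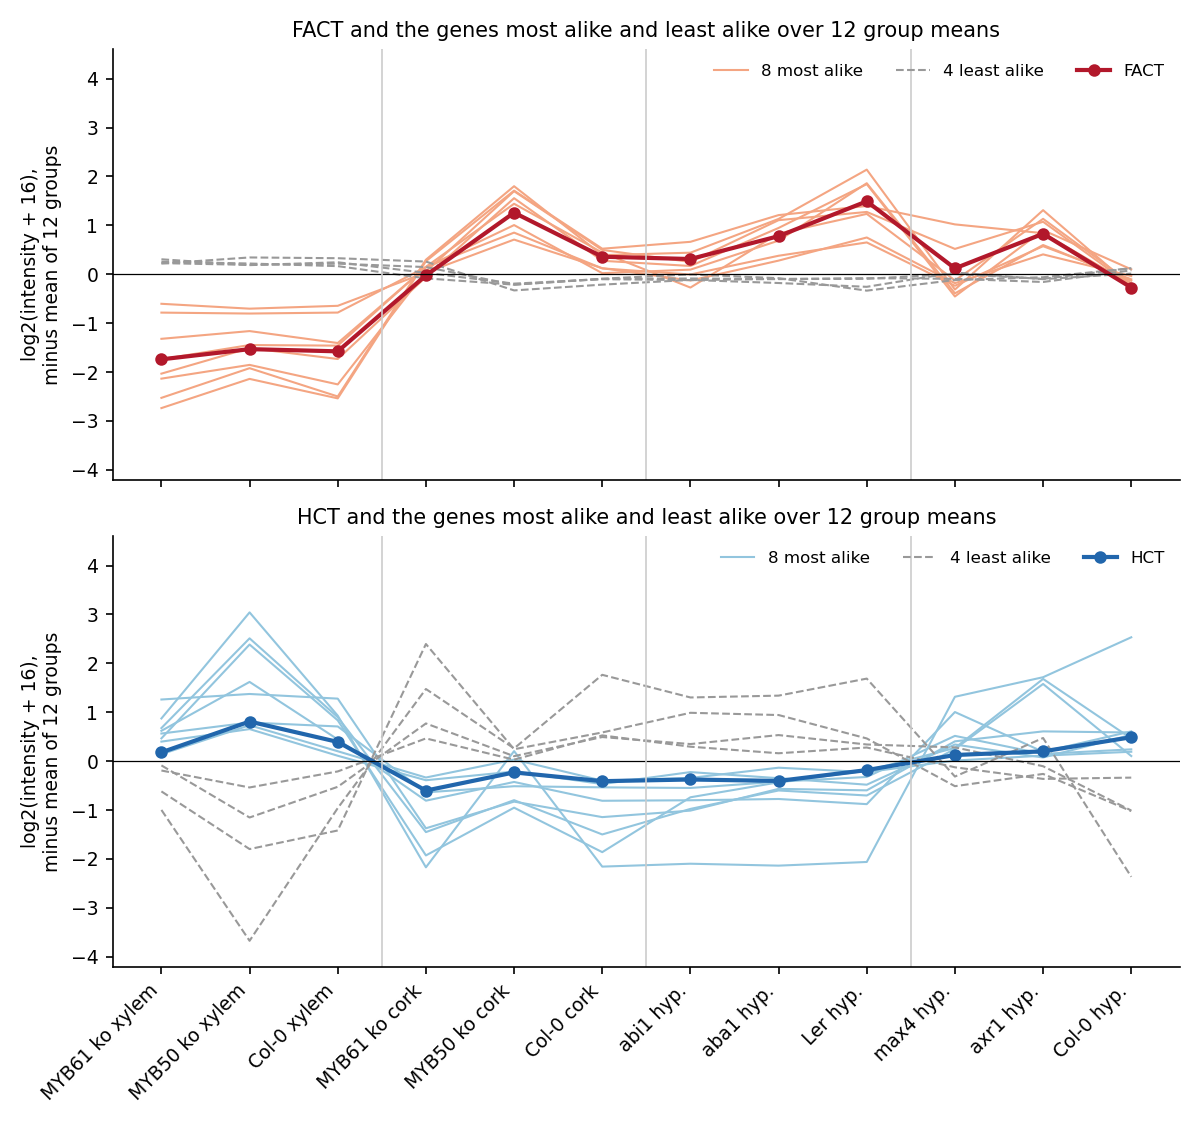
Profiles over the 12 groups of FACT (upper panel) and HCT (lower panel) with the 8 most alike genes (pale solid lines) and the 4 least alike (grey dashed lines), as group means of log2(intensity + 16) minus each gene's mean over the groups. The genes like FACT lie low in all xylem groups and high in MYB50 knockout cork and Ler hypocotyls, and the genes like HCT peak in MYB50 knockout xylem.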

How the data were processed

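RNA of 36 samples was measured on ATH1 arrays. The values deposited by the authors were linear probe-set intensities, and judging by the values each array had been scaled, with a 2% trimmed mean of 100.005 to 100.007 and a maximum of 7005.3. Which software summarised the probes was not given in the sources used. The deposited probe table gave 1 gene for 13513 probe sets (13436 matched in RefSeq TAIR10.1), several for 503 and none for 8730.

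Of 22746 probe sets other than the 64 controls, 15922 reached the filter, a mean intensity of 14.7 (30th percentile). A model of 12 group means was fitted to log2(intensity + 16) of the deposited values with limma 3.58.1 in R 4.3.3 (24 residual degrees of freedom, trended prior of 6.26). The pseudocount of 16 shrinks the log2 differences of dim genes. Intervals are at 95%, tests are two-sided, and adjustment was by Benjamini-Hochberg over all tested probe sets of a comparison. The number of arrays, 3 per group, limits the precision. Scripts were tested on simulated data. Tables used Python 3.11.15.

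FACT and HCT, and the gene lists, were chosen with earlier results of these data known. By rule, the text names every tested member of lists with 8 or fewer tested and otherwise 6 by adjusted p, up to 6 called pathway genes per other comparison, and the 8 most and 4 least alike genes by correlation. The genes named from lists beyond this rule were chosen after their values were seen.

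Same-numbered samples did not deviate together, so the replicate numbers were not used as pairs. Alternatives were other pseudocounts, filters, scaling, a replicate block, array weights, scanner background, robust moderation, fits of the compared arrays alone and fits without each array. Sequences and promoter motifs were not analysed here.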

Additional observations from a re-analysis of the deposited data

Results flagged for a closer look

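In the MYB50 knockout, the limma test of the effect in xylem minus that in cork called 4 genes of the suberin and phenylpropanoid lists. These were 2 of 2 tested suberin genes and 2 of 3 tested phenylpropanoid and monolignol enzymes. Of the 7 tested lignin polymerisation and monolignol handling genes, 0 were called. For FACT the difference of effects was -0.86 (adjusted p = 0.000396), from an effect of 0.05 in xylem, where values were low in both genotypes, and 0.90 in cork. For AT2G48130 it was -0.64 (adjusted p = 0.0269), with means of 3.10 in MYB50 knockout xylem and 3.97 in Col-0 xylem. For CCR2 it was 1.77 (adjusted p = 0.00239), with an effect of 2.07 in xylem, and for ALDH2C4 it was 0.67 (adjusted p = 0.000325), with an effect of 0.46 in xylem. In this test 18.2% of probe sets were called, among them all 8 tested marker genes (3 xylem wall, 3 phloem and 2 cambium) and 4 of the 19 other BAHD genes. The FACT difference was called under all 22 alternatives, between -1.03 and -0.69.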

How the results depend on the processing

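Of 744 values that alternatives gave for 44 results on FACT and HCT, 709 kept direction and call, 18 lost a call, 5 gained one and 12 changed sign; 31 results never changed. The causes were not tested. The call of FACT in MYB61 knockout cork was lost without the filter (-0.38), with only the compared arrays (-0.38), with pseudocount 1 (-0.44), with the scanner background covariate (-0.29), and in 5 of 6 fits that left out an array; the 6 ran from -0.43 to -0.33, and the call held without knockout replicate 2 (-0.43). With the replicate block it was -0.38 (adjusted p = 0.0614), and the block changed no other call of FACT or HCT. Same-numbered samples correlated at a median of 0.010, 0.014 and -0.003 in their deviations (45, 9 and 9 pairs), so numbers do not pair them.

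With quantile normalization, FACT in MYB50 knockout xylem was -0.10, and HCT was 0.17 in Col-0 xylem against hypocotyls, -0.28 in Ler against Col-0 and -0.22 in max4. Pseudocount 1 gave -0.41 and a call for FACT between the knockouts in xylem. Array weights called HCT in aba1 (-0.24) and axr1 (-0.29), as did only the compared arrays in axr1 (-0.29). Leaving out arrays changed a sign or call for FACT in MYB50 knockout xylem (-0.050 to 0.11), between the knockouts in xylem (-0.34 to -0.14) and in abi1 against aba1 (-0.58 to -0.38). It did so for HCT in Col-0 xylem against hypocotyls (-0.25 to 0.023), MYB50 knockout xylem (0.30 to 0.58), the MYB61 difference of effects (-0.14 to 0.14), the knockouts in cork (-0.42 to -0.32), abi1 against aba1 (-0.11 to 0.20) and max4 (-0.39 to -0.33).

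With pseudocount 64, FACT differed between xylem and cork by -0.91 in the MYB61 knockout, -1.81 in the MYB50 knockout and -1.12 in Col-0, by -0.69 between Col-0 xylem and hypocotyls and by 0.26 in max4, all called. Over all probe sets, calls in MYB61 knockout cork numbered 1274, against 230 with only the compared arrays, 489 with scanner background and 774 and 780 without Col-0 cork replicates 2 and 1. In MYB61 knockout xylem they numbered 299, against 39 with only the compared arrays, 193 without Col-0 replicate 3 and 174 without knockout replicate 2. For the MYB61 difference of effects there were 18, against 200 with array weights, 10 with the 50th percentile filter, 3 with only the compared arrays, 6 with scanner background and 6 to 150 without an array. For abi1 there were 1661, against 3220 with array weights, 1020 with only the compared arrays and 940, 1066 and 1102 without abi1 replicate 2, Ler replicate 3 or Ler replicate 2. For aba1 there were 4317, against 6891 with array weights, and between MYB61 knockout tissues 5388, against 3439 with only the compared arrays. The low FACT signal in xylem limits what could be seen there.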
